A study of Homo sapiens with 4 samples.

Results

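The genes described here are ATF4 and 9 genes that belong to its stress response or to the response to unfolded proteins in the endoplasmic reticulum (ER): DDIT3, TRIB3, ASNS, PSAT1, PHGDH, CEBPB, CEBPG, XBP1 and HERPUD1. They were picked by name from the deposited table of read counts, with earlier results of these data known. Of its 58735 genes 10 are thus members, and all 10 passed the filter on low counts, which kept 18442 genes. The lists of related genes used below were also chosen with earlier results known. Their shares of calls beside those of all tested genes are therefore descriptions and not independent comparisons. The samples are U2OS cells, an established human osteosarcoma line. There are 2 libraries of control cells labelled shControl and 2 of cells labelled shGREM1, in which a short hairpin RNA is directed at GREM1, the gene of the secreted BMP antagonist gremlin. The labels name no hairpin sequence, vector, clone or time after transduction, and do not state whether each library is a culture of its own, and the p-values therefore cover only the variation among these libraries, which may be technical.

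ATF4 is a transcription factor whose protein is made more efficiently when the initiation factor eIF2alpha is phosphorylated, which happens when amino acids run short, proteins misfold in the ER or haem is lacking. Its control is therefore largely translational, and its mRNA level is an indirect measure. ATF4 protein switches on genes that make, import and charge amino acids, together with the factor CHOP (DDIT3) and the feedback regulator TRIB3. The ER has further sensors of its own: the kinase IRE1 (ERN1) splices XBP1 mRNA into the form that encodes an active factor, and ATF6 is cut loose from the membrane. Counts per gene do not separate spliced from unspliced XBP1 mRNA.

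Stretches upstream of the RefSeq start sites of 6 of the genes are shown as a selection, some with a match and some without. The elements searched for are ones through which these factors act. All 10 genes matched the RefSeq promoter table (build GRCh38.p14), with 18 windows of 300 bases, from 250 bases before to 50 after each start site. The windows were searched on both strands for the C/EBP-ATF response element core TGATGNAA, the ER stress response element (CCAAT and CCACG with 9 bases between them) and the unfolded protein response element TGACGTGG. Bases annotated as exon of the same gene in GENCODE 29 are left out, apart from sites of 30 bases around a match. Stretches outside exons of DDIT3, of another CEBPB start site and of ASNS held no match and are not shown either. Matches are in capitals and did not overlap each other.
CEBPB (chr20:50190333-50190582, plus strand): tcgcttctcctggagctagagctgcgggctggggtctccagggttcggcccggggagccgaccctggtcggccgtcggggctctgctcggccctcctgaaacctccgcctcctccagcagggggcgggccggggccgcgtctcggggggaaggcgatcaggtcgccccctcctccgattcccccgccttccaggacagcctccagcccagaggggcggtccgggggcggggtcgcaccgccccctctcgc
XBP1 (chr22:28800598-28800819, minus strand): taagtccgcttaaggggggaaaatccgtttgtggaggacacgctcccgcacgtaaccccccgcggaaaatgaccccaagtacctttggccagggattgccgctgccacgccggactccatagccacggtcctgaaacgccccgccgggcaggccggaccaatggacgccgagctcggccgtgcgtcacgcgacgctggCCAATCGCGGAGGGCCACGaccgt
HERPUD1 (chr16:56931892-56932047, plus strand): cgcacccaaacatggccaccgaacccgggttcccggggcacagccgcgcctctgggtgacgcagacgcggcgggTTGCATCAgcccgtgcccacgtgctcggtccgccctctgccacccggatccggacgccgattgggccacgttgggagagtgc
PSAT1 (chr9:78296875-78297124, plus strand): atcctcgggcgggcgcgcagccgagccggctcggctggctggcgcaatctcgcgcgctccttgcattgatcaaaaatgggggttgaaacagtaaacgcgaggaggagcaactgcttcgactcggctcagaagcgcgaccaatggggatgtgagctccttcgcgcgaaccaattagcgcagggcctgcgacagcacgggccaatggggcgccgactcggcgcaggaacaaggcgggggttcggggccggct
ASNS (chr7:97872458-97872487, minus strand): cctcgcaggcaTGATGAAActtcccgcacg
CEBPG (chr19:33374060-33374089, plus strand): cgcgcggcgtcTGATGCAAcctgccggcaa

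The core of the C/EBP-ATF element lay in windows of 3 of the 10 genes, ASNS, CEBPG and HERPUD1, on the reverse strand in HERPUD1. By window this was 3 of the 18 windows of the 10 genes, against 3.62% of the 35116 windows in the whole table. The ER stress response element lay in a window of XBP1, and 0.0769% of all windows held it. The unfolded protein response element was in 0.729% of all windows and in no window of the 10 genes. A match is a description of the letters and not evidence of binding, and a missing match says only that these letters are not in the window.

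Libraries held 15492826 to 16353015 counts, and the targeted gene was close to undetected throughout, with GREM1 counts of 2 and 0 in shControl and 1 and 1 in shGREM1. The knockdown named by the labels could therefore not be checked, and differences between the groups are differences between the libraries so labelled. Of 6 markers of mesenchymal and bone-forming cells, 5 had at least 10 counts in each library, the exception being COL1A2 with 8 to 20 counts. Their summed level was 2050 to 2098 in counts-per-million units (CPM) in shControl and 2700 to 2875 CPM in the shGREM1 libraries. The blood markers PTPRC, CD74 and HBB summed to 0.893 to 2.07 CPM over both groups, with HBB at 0 counts. The epithelial markers EPCAM, CDH1 and KRT5 summed to 7.91 and 8.84 CPM in the shControl libraries against 15.6 and 15.9 CPM in the shGREM1 libraries. The endothelial pair (PECAM1, CDH5) summed to 8.74 and 12.8 CPM against 7.58 and 11.1 CPM, and the neural pair (SNAP25, GFAP) to 21.1 and 21.8 CPM against 20.0 and 23.3 CPM. The part of these markers in the results below was not tested.

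CEBPB was the member that differed between the groups: its level fell by 35.7% in shGREM1. The other 9 members did not pass, ATF4 among them. For 8 of the 10 members, all but CEBPB and XBP1, the 2 shControl libraries differed more than the groups did. No share over all tested genes stands beside this count. A difference of single libraries also varies more than a difference of group means, so the count is not read as a trait of these genes. The shControl libraries were more than 1.5-fold apart for TRIB3, ASNS and PSAT1. The group comparison asks which of these mRNAs differ in abundance between cells with the GREM1 hairpin and control cells, and it was made with edgeR's quasi-likelihood test, adjusted by Benjamini-Hochberg over all 18442 genes. At an adjusted p under 0.05, 1 of 10 members fell and 0 rose, against 4.12% of all tested genes lower, 3.57% higher and 7.69% called in either direction. The count of 1 in 10 is thus near the background. The 2 members with an unadjusted p under 0.05, CEBPB and XBP1, were both lower in shGREM1, where 23.2% of all tested genes had such a p in either direction and 12.1% were lower with one. DESeq2 and limma-voom also called 1 member lower and 0 higher. The median log2 ratio (shGREM1 over shControl) over the members was -0.12, and it was 0.00 over all tested genes. In bulk RNA, fewer cells with a transcript and less of it per cell cannot be told apart.

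**Figure D1:**
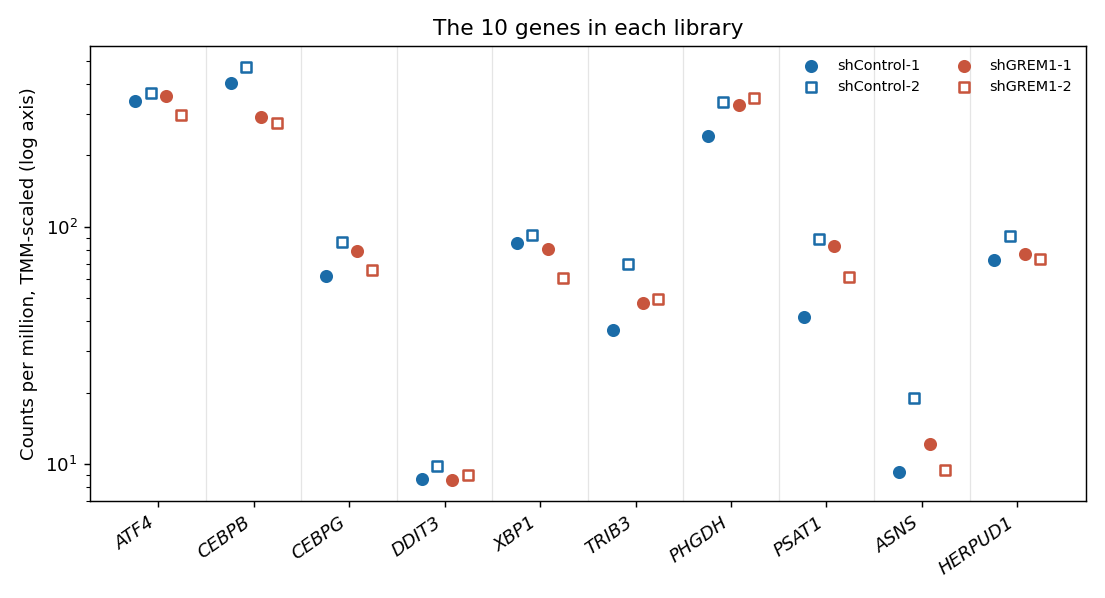
Counts-per-million values (CPM, scaled by TMM, log axis) of each of the 10 genes in the 2 shControl libraries (blue) and the 2 shGREM1 libraries (red), 1 point per library. CEBPB lies at 403 and 474 CPM in the shControl libraries against 291 and 273 CPM in the shGREM1 libraries, while for TRIB3, ASNS and PSAT1 both shGREM1 points lie between the shControl points.

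CEBPB (ENSG00000172216, chromosome 20, 50190734 to 50192689, plus strand, GRCh38) encodes C/EBP-beta, a leucine zipper factor that pairs with ATF4 and also acts in inflammatory gene expression. Its level, scaled by the trimmed mean of M-values (TMM), was 403 CPM in shControl-1, 474 CPM in shControl-2, 291 CPM in shGREM1-1 and 273 CPM in shGREM1-2. The groups did not overlap, which was so for 53.6% of all tested genes. The means were 439 ± 49.7 CPM in the shControl libraries against 282 ± 12.7 CPM in the shGREM1 libraries (SD, n = 2 each), which is a log2 ratio of -0.64 ± 0.11 (SE; 95% interval -0.88 to -0.40; edgeR adjusted p = 0.00309). It passed in each of the 14 alternative settings, with log2 ratios from -0.76 to -0.52. The antisense transcript CEBPB-AS1, which overlaps it, had at most 44 counts in a library, against 4389 or more for CEBPB.

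ATF4 (ENSG00000128272, chromosome 22, 39519695 to 39522685, plus strand) had 338 and 366 CPM in the shControl libraries against 356 and 297 CPM in the shGREM1 libraries. The groups overlapped, with shGREM1-2 the lowest library. The log2 ratio was -0.11 ± 0.12 (SE; edgeR adjusted p = 0.63), and its 95% interval, -0.35 to 0.14, spans from 0.783-fold to 1.10-fold of the control level. Without shGREM1-2 the estimate was 0.02. The ATF4 pseudogenes in the table held at most 24 counts in a library.

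CEBPG (ENSG00000153879), whose product C/EBP-gamma dimerises with ATF4, had 61.8 and 86.2 CPM in the shControl libraries against 78.8 and 65.8 CPM in the shGREM1 libraries (log2 ratio -0.03, edgeR adjusted p = 0.934). Both shGREM1 libraries lay between the shControl libraries, and the estimate had no stable sign, at 0.22 without shControl-2 but -0.26 without shControl-1. DDIT3 (ENSG00000175197), the gene of the pro-apoptotic factor CHOP that is a classical sign of prolonged ER stress, was low at 133 and 151 counts in the shControl libraries against 140 and 144 in shGREM1. These are 8.61 and 9.78 CPM against 8.54 and 8.95 CPM, so the groups overlapped (log2 ratio -0.07, 95% interval -0.51 to 0.37, edgeR adjusted p = 0.882). DDIT3 shares 355 of its 1307 exonic bases with MARS on the opposite strand, which had 19451 counts over the 4 libraries against 568 for DDIT3. No strand setting is given for the counting, so the value of DDIT3 is uncertain.

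XBP1 (ENSG00000100219, chromosome 22, 28794555 to 28800597, minus strand) encodes the factor that drives ER chaperone and degradation genes after splicing, and the start site shown above carries the ER stress element. It had 85.2 and 92.7 CPM in the shControl libraries against 80.8 and 60.9 CPM in the shGREM1 libraries. Both shGREM1 libraries were below both shControl libraries, shGREM1-1 by little and shGREM1-2 by more. Groups did not overlap for 2 of the 10 members, CEBPB and XBP1, and for 53.6% of all tested genes. XBP1 did not pass (log2 ratio -0.33 ± 0.13, SE; edgeR adjusted p = 0.148, unadjusted p = 0.0258). Without shGREM1-1 the log2 ratio was -0.55, with an adjusted p = 0.00201, and without shGREM1-2 it was -0.14. HERPUD1 (ENSG00000051108), an ER membrane protein that helps to export misfolded proteins for degradation and is induced by ER stress, had 72.2 and 91.8 CPM in the shControl libraries against 76.8 and 73.3 CPM in the shGREM1 libraries. Both shGREM1 values fell inside the shControl range (log2 ratio -0.13, 95% interval -0.39 to 0.14, edgeR adjusted p = 0.589).

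**Figure D2:**
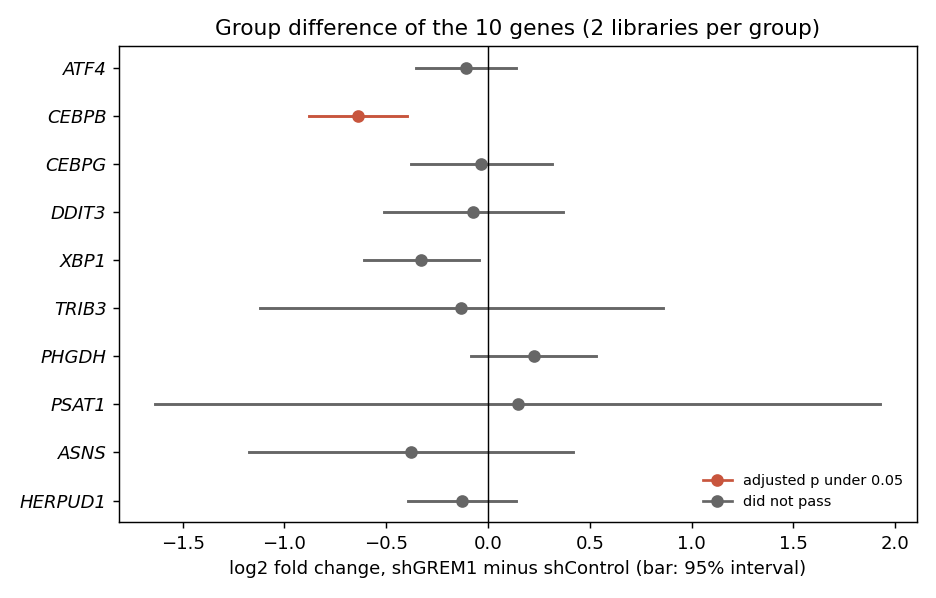
Log2 fold change (log2 ratio of shGREM1 over shControl) of each of the 10 genes with its 95% interval from the edgeR fit, 2 libraries per group. The interval of CEBPB, in red, runs from -0.88 to -0.40, and the widest is that of PSAT1, from -1.63 to 1.93.

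TRIB3, ASNS and PSAT1 stood out for the spread between control libraries. TRIB3 (ENSG00000101255, chromosome 20, 362835 to 397559, plus strand) encodes a pseudokinase that ATF4 and CHOP induce and that restrains them in turn. It had 36.8 CPM in shControl-1 and 69.7 CPM in shControl-2, a 1.89-fold difference, and 47.8 and 49.5 CPM in the shGREM1 libraries. The shGREM1 libraries lay close together and between the shControl libraries. The group difference was -0.13 on the log2 scale with a 95% interval from -1.12 to 0.86 (edgeR adjusted p = 0.879), and its sign turned on which control was kept. Without shControl-1 it was -0.53 (adjusted p = 0.0468), and without shControl-2 it was 0.40 (adjusted p = 0.187).

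The enzymes of amino acid synthesis showed the same order of the control libraries. ASNS (ENSG00000070669, chromosome 7, 97852118 to 97872542, minus strand) makes asparagine, and its start site carries the C/EBP-ATF core printed above. It had 143 counts in shControl-1 and 292 in shControl-2, and 200 and 152 counts in shGREM1-1 and shGREM1-2. In TMM-scaled terms these were 9.26 and 18.9 CPM against 12.2 and 9.45 CPM, so shControl-2 was the high library. The group difference was -0.38 on the log2 scale with an SE of 0.33 (edgeR adjusted p = 0.566). Without shControl-1 it was -0.81, and without shControl-2 it was 0.22. The pseudogene ASNSP1 had up to 126 counts in a library, so reads may be split between the pair, and the level of ASNS is uncertain.

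PSAT1 (ENSG00000135069, chromosome 9, 78297143 to 78330093, plus strand), the aminotransferase of serine synthesis, had 41.6 CPM in shControl-1, 89.3 CPM in shControl-2 and 83.4 and 61.5 CPM in the shGREM1 libraries. Here shControl-1 was the low library, and the shControl libraries differed 2.14-fold. The log2 ratio was 0.15 (95% interval -1.63 to 1.93, edgeR adjusted p = 0.916). Without shControl-2 it was 0.79 (adjusted p = 0.0124), without shControl-1 -0.31 and without shGREM1-1 -0.09. PHGDH (ENSG00000092621), the dehydrogenase that opens serine synthesis, had 241 and 336 CPM in the shControl libraries against 326 and 349 CPM in the shGREM1 libraries. It too was lowest in shControl-1, and the groups overlapped (log2 ratio 0.22, 95% interval -0.08 to 0.53, edgeR adjusted p = 0.382). Without shControl-1 the difference was 0.00. With a library left out, its group has a single library, for which the spread of the other group was taken.

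Levels of different genes can be compared only per length, as transcripts-per-million values (TPM) computed from the counts and the gene lengths in the table. Averaged over the 4 libraries, CEBPB (661 TPM) and ATF4 (484 TPM) were the most abundant, and both ranked among the upper 200 of the tested genes, at places 133 and 197. PHGDH (122 TPM), PSAT1 (113 TPM) and XBP1 (94.6 TPM) followed, then CEBPG (59.6 TPM), HERPUD1 (54.8 TPM) and TRIB3 (53.4 TPM), DDIT3 (24.7 TPM) and ASNS. CEBPB was above ATF4 in each of the 4 libraries, at 725 against 472 TPM in shControl-1, 870 against 522 TPM in shControl-2, 527 against 501 TPM in shGREM1-1 and 521 against 441 TPM in shGREM1-2. The ranges over libraries overlapped among PHGDH, PSAT1 and XBP1, and among CEBPG, HERPUD1 and TRIB3. The order within each of these sets of 3 is therefore not separated by the spread. PSAT1, at 66.9 TPM in shControl-1, also overlapped CEBPG and TRIB3, which reached 70.2 and 72.9 TPM in shControl-2. DDIT3 (23.1 to 26.9 TPM) and ASNS (7.31 to 15.3 TPM) were below the other members in every library. The lengths count every annotated exon, 9217 bases for PHGDH, so a gene with long, rarely used exons would be given too low a level.

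Between the 2 control libraries the members moved one way. All 10 were higher in shControl-2 than in shControl-1, with a median log2 difference of 0.41, where 51.0% of all tested genes were higher and the median was 0.00. The difference exceeded 1.5-fold for TRIB3, ASNS and PSAT1, 3 of 10 members. Of all tested genes 7.37% were at least that much higher in shControl-2, and 1.56% of the 12406 genes averaging 5 CPM or more. PHGDH was 1.39-fold and ATF4 1.08-fold higher in shControl-2. Between the shGREM1 libraries the median was -0.18 and 0 of 10 members passed 1.5-fold either way, against 15.8% of all tested genes and 4.65% of those averaging 5 CPM or more, as all 10 members did. These pairs are single libraries, so the differences have no replicate check.

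Most amino acid genes of the kind that ATF4 induces had the same order of the control libraries, while feedback and death genes downstream of ATF4 and CHOP were divided. Of 30 tested genes in 3 lists of amino acid genes, 29 were higher in shControl-2, and 28 were lower in shGREM1-2 than in shGREM1-1, which 50.3% of all tested genes were. All 12 aminoacyl-tRNA synthetase genes were higher in shControl-2 (median log2 difference 0.38), as were all 9 tested amino acid transporter genes (median 0.42) and 8 of 9 genes of serine, folate and proline synthesis (median 0.57). SLC7A11, the cystine importer, had 71.1 CPM in shControl-1, 178 CPM in shControl-2 and 133 and 122 CPM in the shGREM1 libraries. MTHFD2, a mitochondrial folate enzyme, had 186 and 301 CPM in the shControl libraries against 258 and 192 CPM in the shGREM1 libraries. Of the 16 feedback and death genes, 10 were higher and 6 lower in shControl-2 (median 0.06). Among the lower ones were CHAC1, at 54.9 CPM in shControl-1 and 52.1 CPM in shControl-2, and SESN2, at 113 and 109 CPM. Past 1.5-fold either way were 4 of the 16, all 4 higher in shControl-2, where 7.37% of all tested genes were that much higher. These were FGF21 (2.83-fold), STC2 (2.19-fold), GDF15 (1.83-fold) and NUPR1 (1.55-fold). In the 3 amino acid lists 7 of 30 genes were that much higher. The lists of ER chaperones (median -0.07) and of ER-associated degradation (median -0.05) lay near 0 between the shControl libraries.

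**Figure D3:**
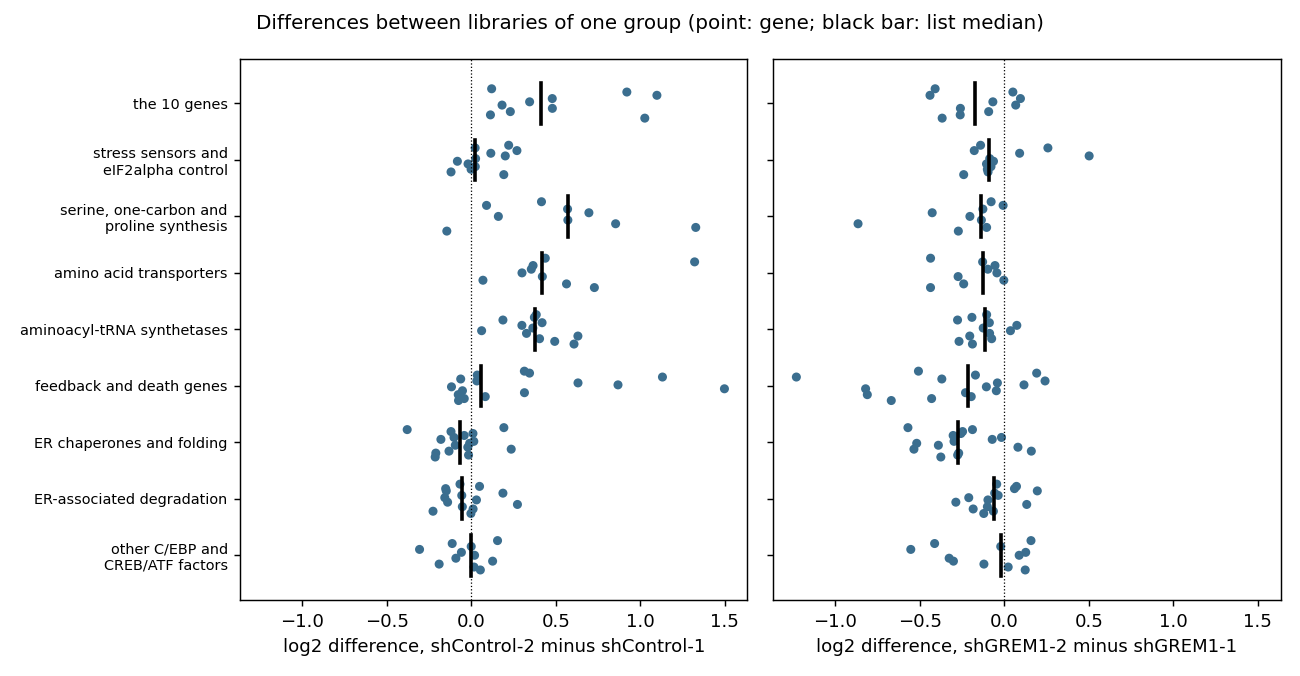
Log2 difference between the 2 libraries of each group for the 10 genes and the 8 lists of related genes, shControl-2 minus shControl-1 on the left and shGREM1-2 minus shGREM1-1 on the right. Each point is a gene and each black bar a list median. The members (median 0.41) and the 3 amino acid lists (0.57, 0.42 and 0.38) lie to the right of 0 in the left panel.

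Between the groups, the amino acid arm gave no calls. By edgeR's test 0 of 9 genes of serine, folate and proline synthesis, 0 of 9 amino acid transporters and 0 of 12 aminoacyl-tRNA synthetases passed in either direction, where 7.69% of all tested genes did. DESeq2 and limma-voom also called 0 of each, and 1, 1 and 0 genes had an unadjusted p under 0.05, against 23.2% of all tested genes. The list medians were -0.03, 0.01 and -0.10. CTH, which makes cysteine, had 12.3 and 22.3 CPM in the shControl libraries against 33.6 and 18.4 CPM in the shGREM1 libraries, and ALDH1L2 had a log2 ratio of 0.44 (edgeR adjusted p = 0.57). The largest transporter differences were in SLC43A1 (-0.45, edgeR adjusted p = 0.0743) and SLC1A4 (0.18), and the largest among the synthetases in AARS (0.29) and NARS (-0.22). With a library left out, each of these lists gave at most 1 call in a direction, and the median of the members ran from -0.30 without shControl-1 to 0.14 without shControl-2.

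The sensors of the ER response went in different directions. Of 12 genes for stress sensors and control of eIF2alpha, 2 rose, 1 fell and 9 did not pass (median 0.03). By edgeR's test 7 of the 12 had an unadjusted p under 0.05, 3 higher and 4 lower, against 23.2% of all tested genes. The 3 calls were 25% of the list, against 7.69% of all tested genes, and without shControl-1 or shControl-2 the list gave 1 call. ATF6, the membrane-bound factor, rose from 43.2 ± 4.08 to 62.6 ± 7.34 CPM (SD, n = 2 each), with a log2 ratio of 0.54 ± 0.13 (edgeR adjusted p = 0.0179). Its protease MBTPS1 rose from 191 ± 10.9 to 262 ± 11.7 CPM (log2 ratio 0.46, edgeR adjusted p = 0.0172). ERN1, the IRE1 kinase that splices XBP1 mRNA, fell from 34.3 ± 3.39 to 20.9 ± 5.12 CPM (log2 ratio -0.71 ± 0.17, edgeR adjusted p = 0.0181). For each of these genes the groups did not overlap, which was so for 8 of the 12 genes of the list and 53.6% of all tested genes. EIF2AK3, the ER kinase PERK that leads to ATF4, had 24.9 and 24.6 CPM in the shControl libraries against 25.0 and 23.3 CPM in the shGREM1 libraries, and the phosphatase subunits PPP1R15A (-0.31) and PPP1R15B (-0.30) did not pass. ATF6 missed the threshold without shControl-1 (edgeR adjusted p = 0.154), MBTPS1 without shControl-1 (0.192) or shControl-2 (0.0536), and ERN1 without shControl-2 (0.0948), so that 0 genes of the list rose without shControl-1, 1 rose without shControl-2 and 0 fell without shControl-2. Without shGREM1-2, 2 fell.

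Among feedback and death genes downstream of ATF4 and CHOP, GADD45A, SESN2 and TNFRSF10B fell and ERO1A rose. Of 16 tested, 3 fell, 1 rose and 12 did not pass, with a median of -0.13, where 4.12% of all tested genes fell and 3.57% rose. By edgeR's test 5 of the 16 had an unadjusted p under 0.05, 1 higher and 4 lower, against 23.2% of all tested genes. GADD45A, a growth arrest gene that p53 also induces, fell from 195 ± 11.2 CPM to 101 ± 5.21 CPM (SD, n = 2 in each group; log2 ratio -0.95 ± 0.11, edgeR adjusted p = 9.88e-05). SESN2, which restrains mTORC1 when amino acids are short, had 113 and 109 CPM in the shControl libraries against 85.7 and 66.3 CPM in the shGREM1 libraries (log2 ratio -0.55, edgeR adjusted p = 0.0161). The death receptor gene TNFRSF10B fell as well (-0.41, edgeR adjusted p = 0.0326). ERO1A, an ER oxidase, rose from 115 ± 2.92 to 165 ± 3.77 CPM (log2 ratio 0.52, edgeR adjusted p = 0.00722). CHAC1, which degrades glutathione, had 54.9 and 52.1 CPM in the shControl libraries against 34.6 and 19.7 CPM in the shGREM1 libraries (log2 ratio -0.98, edgeR adjusted p = 0.0865). Neither CHAC1 nor STC2, a secreted glycoprotein gene with at most 51 counts in a library (-1.03), passed. GADD45A passed with each library left out. SESN2 did not pass without shControl-1 (edgeR adjusted p = 0.0703) or shGREM1-2 (0.0509), TNFRSF10B without shControl-1 (0.119), shControl-2 (0.146) or shGREM1-2 (0.0799), and ERO1A without shControl-2 (0.056). With single libraries left out, 2 to 5 genes of the list fell and 1 or 2 rose, the 5 falls without shGREM1-1 and the 2 rises without shGREM1-2.

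Among ER folding genes, P4HB rose and most others had log2 ratios above 0 but did not pass. Of 16 chaperones and folding enzymes, 1 rose, 0 fell and 15 did not pass, where 7.69% of all tested genes passed. The log2 ratio was above 0 for 12 of the 16, against 9337 of all 18442 tested genes. The 4 others were below 0, and the ratios ran from -0.37 to 0.60 with a median of 0.11. P4HB, a protein disulfide isomerase that is also a subunit of the collagen prolyl hydroxylase, rose from 410 ± 20.5 to 623 ± 4.89 CPM (SD, n = 2 each; log2 ratio 0.60 ± 0.11, edgeR adjusted p = 0.00297). HSPA5, the chaperone BiP that is the standard marker of ER stress, had 568 and 564 CPM in the shControl libraries against 680 and 475 CPM in the shGREM1 libraries (log2 ratio 0.03, edgeR adjusted p = 0.939). The shGREM1 libraries thus lay on either side of the controls. PDIA3 (0.36, edgeR adjusted p = 0.0781) and DNAJB9 (-0.37, edgeR adjusted p = 0.243), a target of spliced XBP1, did not pass. P4HB did not pass without shControl-2 (edgeR adjusted p = 0.0582), when 0 of the list rose, and 6 rose without shGREM1-2. DESeq2 and limma-voom likewise called 0 of the list lower, and 5 of the 16 had an unadjusted p under 0.05, all 5 higher in shGREM1, against 11.1% of all tested genes higher with such a p. Of the 16 genes, 14 were lower in shGREM1-2 than in shGREM1-1, against 50.3% of all tested genes.

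The lists of ER-associated degradation and of other factors of the same families gave 1 and 2 calls. These were 7.14% and 18.2% of their tested genes, against 7.69% of all tested genes. Of 14 tested degradation genes, the lectin gene OS9 rose from 147 ± 4.01 to 200 ± 3.48 CPM (SD, n = 2 each; log2 ratio 0.44, edgeR adjusted p = 0.0176), 0 fell and 13 did not pass (median 0.01). SELENOS (-0.36) and SEL1L (0.21) were the largest of the others. Of 11 tested C/EBP and CREB/ATF genes, CREB3L2 (0.57, edgeR adjusted p = 0.0142) and ATF1 (0.42, edgeR adjusted p = 0.0434) rose, 0 fell and 9 did not pass (median 0.07). In both lists DESeq2 and limma-voom called 0 genes lower, and 2 of 14 and 4 of 11 genes had an unadjusted p under 0.05, against 23.2% of all tested genes. CREB3L2 is an ER-membrane factor related to ATF6. CEBPA, a relative of CEBPB, had 3.50 and 3.82 CPM in the shControl libraries against 1.77 and 1.43 CPM in the shGREM1 libraries (log2 ratio -1.19, edgeR adjusted p = 0.0504), and ATF7 had a log2 ratio of 0.39 (edgeR adjusted p = 0.121). OS9, CREB3L2 and ATF1 did not pass without shControl-1 (edgeR adjusted p = 0.0911, 0.0766 and 0.238) or without shControl-2 (0.133, 0.0639 and 0.135), when 0 genes of either list rose. ATF1 also failed without shGREM1-2 (0.126), with DESeq2 (0.087), with limma-voom (0.0582) and without robust estimation (0.0523).

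**Figure D4:**
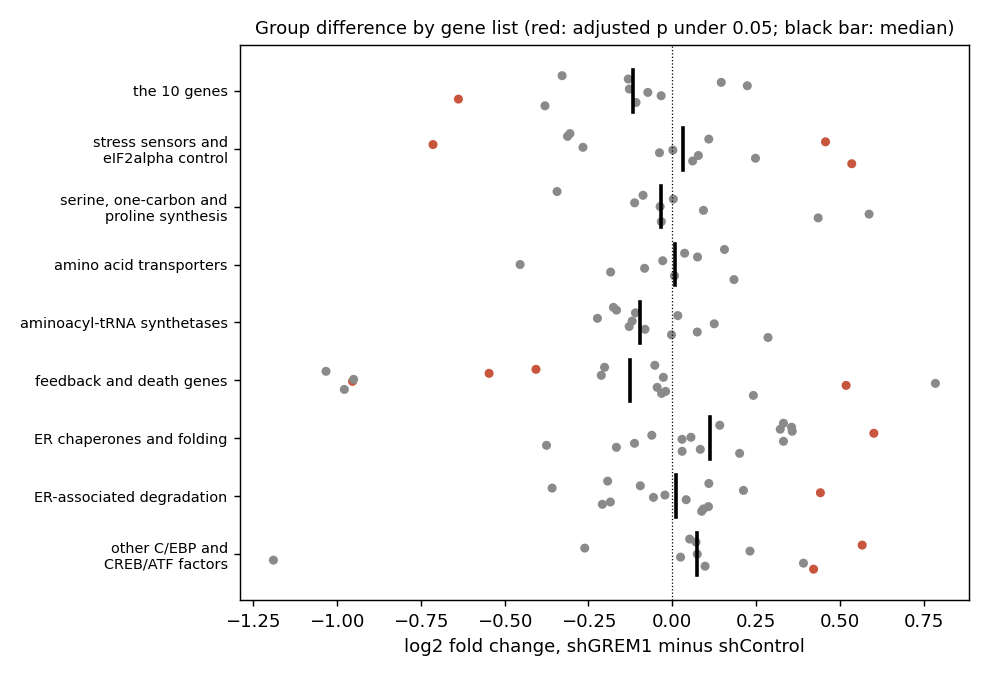
Log2 fold change (log2 ratio of shGREM1 over shControl) of the tested genes in each list, 1 point per gene, with black bars at the list medians and genes with an edgeR adjusted p under 0.05 in red. The 3 amino acid lists hold no red point, and among the 10 genes the red point is CEBPB at -0.64.

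The genes of these lists whose pattern over the 4 libraries was nearest to that of ATF4 were TARS, MTHFD1L and BBC3. The root mean square distance between their centred log2 CPM values and those of ATF4 was 0.03, 0.05 and 0.05, among 108 candidate genes. TARS, a threonyl-tRNA synthetase gene, had 283 and 323 CPM in the shControl libraries against 308 and 254 CPM in the shGREM1 libraries, low in shGREM1-2 as ATF4 was. ATF4 itself varied little, from 297 to 366 CPM, so a small distance also marks genes that varied little. Distances to genes outside the lists were not computed, and shared control was not tested.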

How the data were processed

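RNA from U2OS cells was sequenced in 2 shControl and 2 shGREM1 samples. The labels' protocols name a column kit for the RNA and the SMARTER mRNA-Seq kit for the libraries. The deposited values are raw read counts, 1 column per library. The mouse build mm10 and the tools StringTie 1.3.3b, HISAT2 2.0.5 and DESeq2 stand, without roles, in the submitters' processing notes. The genes are human, and each of the 58735 matched GENCODE 29 (GRCh38) in identifier, position, strand and symbol. How reads were counted, and with which strand setting, is not given in the sources used here. By abbreviation and number, column NC1 was taken for shControl-1, NC2 for shControl-2, SHG11 for shGREM1-1 and SHG12 for shGREM1-2. The deposited table also gives a gene length in bases, used for TPM.

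The low-count filter was edgeR's filterByExpr (at least 10 counts, total 15), and the test was edgeR 4.0.16 in R 4.3.3 (TMM factors 0.987 to 1.01, quasi-likelihood, robust, group alone). The SE was taken from the F statistic. Differences between libraries of a group are on log2 CPM with 0.5 counts added, and the pattern distance used a prior count of 2. The biological coefficient of variation was 11.4%. Alternatives were other scalings and filters, DESeq2 1.42.0, limma-voom (limma 3.58.1), no robust estimation, protein-coding genes alone, a replicate block and leaving out each library. The script was tested on simulated counts. It recovered 34.3% of the 1.5-fold, 71.6% of the 2-fold and 87.9% of the 4-fold differences put in, and 3.73% of its calls were false. A gene that did not pass may therefore still differ. Figures used matplotlib 3.10.9.

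The members and lists were chosen with earlier results of these data known. Named genes were all members, GREM1, up to 4 called genes per list and direction, the 2 largest differences not called, and the 3 genes nearest to ATF4. EIF2AK3, HSPA5, SLC7A11 and MTHFD2 were added after their values were seen. SLC7A3, DERL3, CEBPE and CREB3L3 were listed but too low to be tested, with at most 14 counts in a library.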

Additional observations from a re-analysis of the deposited data

How the results depend on the processing

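The fall of CEBPB held its direction and its call in all 14 alternatives, with edgeR, DESeq2 or limma adjusted p from 7.28e-07 to 0.0443. Of 140 alternative values of the 10 genes, 11 had the opposite sign and 4 gained a call. Leaving out each library in turn gave log2 fold changes from -0.244 to 0.0172 for ATF4, -0.168 to 0.017 for DDIT3, -0.526 to 0.397 for TRIB3, -0.811 to 0.22 for ASNS, -0.308 to 0.794 for PSAT1, -0.0030 to 0.479 for PHGDH, -0.26 to 0.222 for CEBPG and -0.297 to 0.0507 for HERPUD1. CEBPG was at 0.000168 with upper-quartile scaling. With single libraries left out, 0 to 1 members rose and 1 to 2 fell.

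Counts of list genes moved as follows, and the cause was not tested. With single libraries left out, 0 to 2 sensor genes rose and 0 to 2 fell, 0 to 1 serine, folate and proline genes rose and 0 to 1 fell, 0 to 1 transporters and 0 to 1 synthetases rose, 1 to 2 feedback and death genes rose and 2 to 5 fell, 0 to 6 chaperones rose and 0 to 1 fell, 0 to 1 degradation genes rose, and 0 to 2 C/EBP and CREB/ATF genes rose and 0 to 1 fell. Without a count filter 1 serine, folate and proline gene, 1 transporter, 5 feedback and death genes and 1 C/EBP or CREB/ATF gene fell, and 3 chaperones rose. Among protein-coding genes only, 3 chaperones rose and 1 C/EBP or CREB/ATF gene fell. With upper-quartile scaling 2 chaperones rose. Without robust estimation and with limma-voom 5 feedback and death genes fell, and there and with DESeq2 1 C/EBP or CREB/ATF gene rose.

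Same-numbered libraries did not deviate together over all genes (Pearson r -0.00703). The labels state no pairing. This value cannot decide whether the numbers pair the samples, since a pairing could act on part of the genes. With the replicate block, 2 members fell, the second being XBP1 (log2 fold change -0.34, edgeR adjusted p = 0.0453). In that blocked fit 1 serine, folate and proline gene rose and 1 fell, 1 transporter fell, 2 feedback and death genes rose and 5 fell, 3 chaperones rose and 1 C/EBP or CREB/ATF gene fell. Counts over all genes with the block were 1101 higher and 1273 lower, against 659 and 759 without it. They were 912 and 1142 without a count filter (35699 genes tested), and with single libraries left out 266 to 998 higher and 382 to 1112 lower, lowest without shControl-1 and highest without shGREM1-1. With 2 libraries per group, the 95% interval of PSAT1 reached from 0.322-fold to 3.80-fold.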
